A study of Drosophila melanogaster with 3 samples.

Results

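The oxidative phosphorylation subunit genes are the nuclear genes that encode the subunits of the mitochondrial respiratory chain and of ATP synthase. Members were the protein-coding genes whose symbol begins with ND- (complex I), UQCR- (complex III), COX and a digit (complex IV) or ATPsyn (complex V) in the dm6 gene models. The rule found 80 genes of 13968 protein-coding genes: 40 of complex I, 9 of complex III, 16 of complex IV and 15 of complex V. Chromatin immunoprecipitation followed by sequencing had mapped the DNA-binding protein Pipsqueak, encoded by psq, in Drosophila melanogaster, in wandering third-instar larvae used whole. The larvae, pooled males and females of unknown age, came from the transgenic strain psq-GFP, which stably expresses psq fused at its C terminus to GFP (psq-eGFP), and an anti-GFP antibody was used for the precipitation. The 3 samples were biological replicates of this 1 group, so no conditions could be compared, and the control sample was not analysed here. Chromatin of all larval tissues was pooled, so the tissue in which a site was bound is not known.

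Complex I oxidises NADH, complex III passes electrons from ubiquinol to cytochrome c, complex IV reduces oxygen with them, and complex V uses the resulting proton gradient to make ATP. Each is an assembly of many small nuclear-encoded subunits around a core that is partly encoded in mitochondrial DNA. Pipsqueak is a BTB-domain protein of the group that binds GAGA-rich DNA and is known for roles in oogenesis, eye development and Polycomb-linked silencing.

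The authors' optimal list, the output of their reproducibility step, held 9459 entries. A list of 30000 entries, background regions among them, was deposited for each replicate and for the pooled replicates. Each entry has a summit, its point of highest enrichment, and a signal value on a scale that is not stated, so signal was used only to rank entries within a list. A gene was called bound when its span, widened by 1 kb at either end, held an optimal summit, and a promoter summit was one within 500 bp of an annotated start site of the gene. The top list of a replicate was its 9459 strongest entries. No read counts were given, so depth is unknown and no interval for counting error could be set. Positions are on dm6.

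The sequences that carry the result are the 101 bp around the promoter summits of members, printed on the strand of the member from 5′ to 3′. ND-ASHI had the strongest promoter summit of any member (chrX:6679322-6679422, minus strand). ND-42 (chr3R:22027516-22027616, plus strand) and ATPsyngamma (chr3R:29748897-29748997, minus strand) have AT-rich windows. COX6B (chrX:19744325-19744425, minus strand) was the only member with the Pipsqueak-type word GAGAG in its window. COX7AL2 (chr2L:2197513-2197613, minus strand) was the only bound duplicate gene. Capitals mark a match to TTANNTAA, the core of an element described for fly energy genes, in ND-42 and ATPsyngamma, and the reverse complement of GAGAG in COX6B. The marked word of ND-42 is one of the words of the element's stricter form, listed below, and that of ATPsyngamma is not.
ND-ASHI: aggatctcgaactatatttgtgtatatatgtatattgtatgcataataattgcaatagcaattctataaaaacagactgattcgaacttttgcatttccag
ND-42: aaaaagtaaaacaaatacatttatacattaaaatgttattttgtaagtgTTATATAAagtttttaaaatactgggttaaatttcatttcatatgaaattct
ATPsyngamma: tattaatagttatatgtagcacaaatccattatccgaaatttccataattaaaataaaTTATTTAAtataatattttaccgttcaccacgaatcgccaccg
COX6B: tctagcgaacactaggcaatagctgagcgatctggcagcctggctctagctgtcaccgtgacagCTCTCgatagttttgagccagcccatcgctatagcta
COX7AL2: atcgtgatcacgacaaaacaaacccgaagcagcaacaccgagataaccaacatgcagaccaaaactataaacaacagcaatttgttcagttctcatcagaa

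Pipsqueak was bound at 25 of the 80 members, and 21 of these had a promoter summit. The bound share of 31.25% compares with 37.4% of all protein-coding genes, and the promoter share of 26.25% with 27.4% of them. Members are short, with a median span of 1091.5 bp against 2164.5 bp for all protein-coding genes, and longer genes hold more summits. Among genes of like span, taken in 20 classes of span with equal numbers and weighted to the members, 26.3% were bound and 19.1% had a promoter summit. This corresponds to 21.1 bound members and 15.3 with a promoter summit. These are descriptions of the lists, with no test.

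The count of bound members varied little between replicates, and that of members with a promoter summit varied more. In the top lists of replicates 1, 2 and 3, 28, 24 and 26 members were bound, a mean of 26 ± 2 (SD, n = 3). The bound background in the same lists was 39.6%, 35.2% and 36.8% of all protein-coding genes. Members with a promoter summit numbered 25, 18 and 19, a mean of 20.7 ± 3.79 (SD, n = 3). In the same lists 4049, 3517 and 3788 of all 13968 protein-coding genes had one, a mean of 3785 ± 266 (SD, n = 3). The order of the replicates was thus the same for members and for all genes. Of the 25 bound members, 22 had their strongest optimal entry overlapped by the top list of every replicate, or 88.0%. Over all 39 distinct optimal entries at members, weaker ones included, 30 were overlapped in every top list, or 76.9%, against 80.7% of all optimal entries. ND-15 was overlapped in the top lists of replicates 2 and 3, and COX8 and ND-18 in that of replicate 1 alone. COX8 had no overlapping entry at all in the list of replicate 3.

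**Figure D1:**
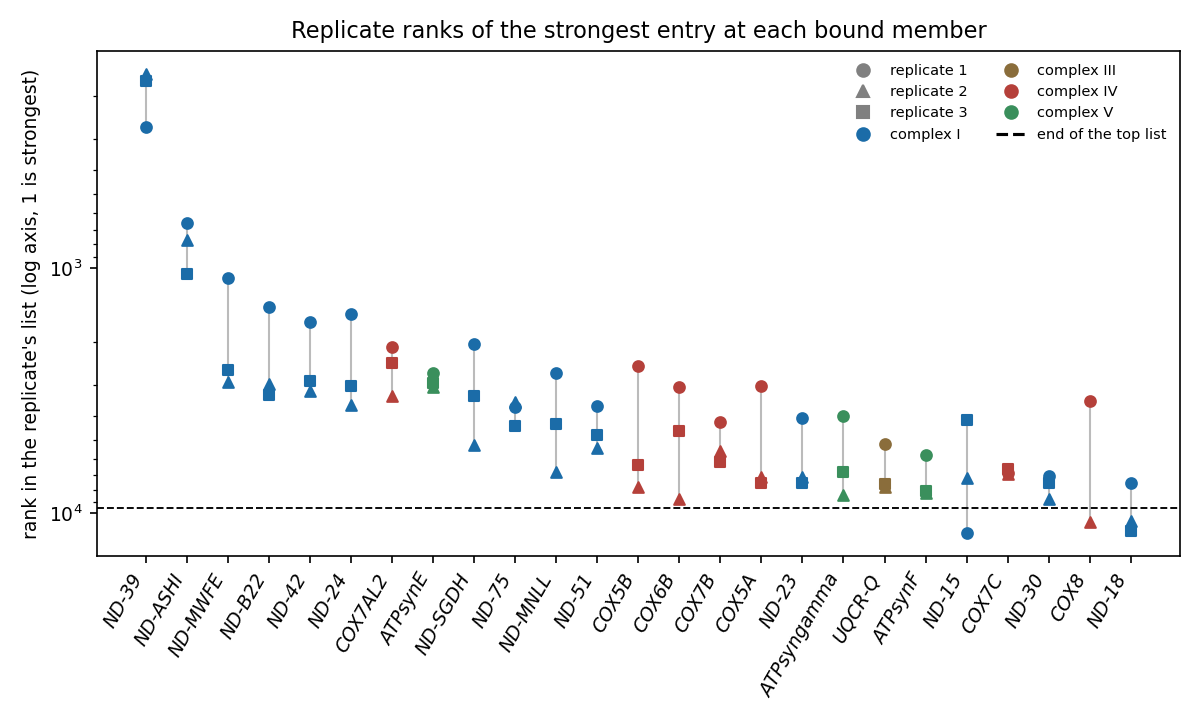
Rank of the strongest optimal entry of each bound member in the list of each replicate (log axis, rank 1 is the strongest; the dashed line is the end of the top list at rank 9459). ND-39 stayed between ranks 162 and 267, and ND-15, COX8 and ND-18 have points beyond the line.

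The complexes differed in their counts, on small numbers. In complex I, 14 of 40 members were bound and 11 had a promoter summit. In complex IV, both counts were 7 of 16. In complex V both were 3 of 15, and in complex III 1 of 9 members was bound, with no promoter summit. The top-list means were 14 ± 1 for complex I, 6.33 ± 0.577 for complex IV and 4.67 ± 1.15 for complex V (SD, n = 3), while complex III gave 1 in each list. Of all protein-coding genes, 37.4% were bound and 27.4% had a promoter summit. Median spans were 1103, 701, 873.5 and 1100 bp in complexes I, III, IV and V, and no share of like span was computed per complex. No test between complexes was made.

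**Figure D2:**
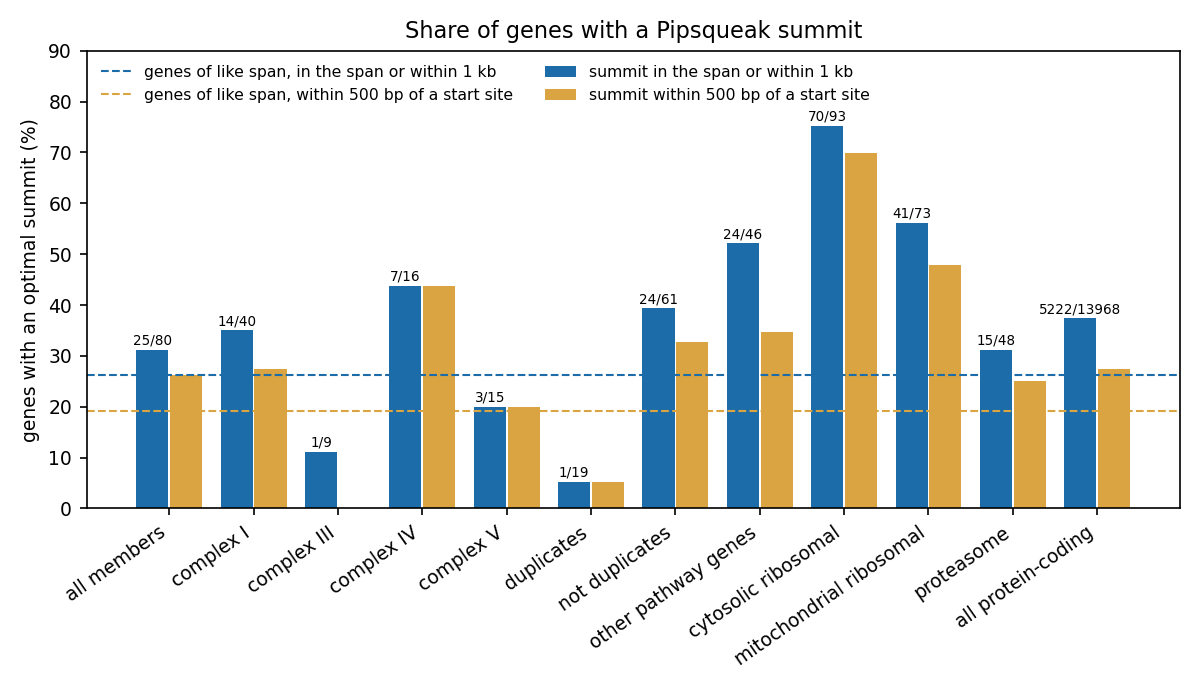
Percent of genes with an optimal summit in the span or within 1 kb (blue, with the number bound over the number of genes) and within 500 bp of a start site (ochre). Dashed lines give the shares of genes of like span as the 80 members, 26.3% and 19.1%, and the duplicates stand at 1 of 19.

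Among the core subunits of complex I, ND-51 and ND-24 of the NADH-oxidising arm had promoter summits, while the 1 entry at ND-75 lay at -785 bp and 198 bp from CG1632. Of the core subunits that lead to ubiquinone, ND-30 and ND-23 had promoter summits, and ND-49 and ND-20 were not bound. The strongest promoter summit belonged to ND-ASHI, an accessory subunit of the membrane arm (chrX:6677262-6679118, minus strand). Its signal was 1175, rank 852 of the optimal list, and the overlapping entries ranked 654, 771 and 1059 in replicates 1, 2 and 3. The summit lay at -254 bp, where negative positions are upstream of the member's start site, and 268 bp from the start site of Fum1, which encodes fumarase of the tricarboxylic acid cycle. It was therefore high in every replicate and stood almost midway between a respiratory subunit and a cycle enzyme.

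ND-MWFE, a small accessory subunit (chr2R:13158666-13160190, plus strand), had a promoter summit with a signal of 693, rank 2053, and replicate ranks of 1099, 2914 and 2603. It lay at -188 bp but only 33 bp from TppII, a peptidase gene on the other strand. ND-42, a further accessory subunit (chr3R:22027709-22029393, plus strand), had a signal of 621, rank 2401, with replicate ranks of 1661, 3168 and 2900. Its summit lay at -143 bp, and 86 bp from Cchl, whose product attaches heme to cytochrome c. The summits of both were nearer to the neighbouring gene than to the member, and both entries were in every top list. ND-18, an accessory subunit, had the weakest strongest entry of all bound members, at a signal of 201 and rank 8945, with ranks of 7489, 10718 and 11746.

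In complex IV the strongest promoter summit was at COX7AL2, a duplicate of the COX7A subunit gene (chr2L:2192525-2197912, minus strand), with a signal of 472 and rank 3457. The summit lay 349 bp downstream of a start site, and the overlapping entries ranked 2102, 3320 and 2449. A stronger entry of 563, rank 2745, lay at 550 bp downstream and overlapped the same replicate entries. COX5B (chr2L:6557800-6559308, plus strand) had a signal of 350, rank 4926, with ranks of 2514, 7813 and 6349. Its summit was at -250 bp and only 48 bp from IFT52, an intraflagellar transport gene. COX6B (chrX:19740537-19744335, minus strand) had 346, rank 4995, with ranks of 3067, 8734 and 4594, and its summit was at -40 bp. COX5B and COX6B thus ranked well in replicate 1 and near the lower end of the top list in replicate 2. This was not particular to them. Over the bound members with an overlapping entry, median ranks were 3067, 6796 and 4499.5 in replicates 1, 2 and 3. The other bound members of complex IV were COX7B, COX5A, COX7C and COX8, with signals from 231 to 343.

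In complex V, ATPsynE, a membrane subunit (chr3R:14326947-14327735, plus strand), had a promoter summit of 371, rank 4636, with replicate ranks of 2950, 4954 and 6600. It lay 31 bp downstream of the start site and 289 bp from Afti on the other strand. ATPsyngamma, of the rotating central stalk (chr3R:29747704-29749163, minus strand), had 290, rank 6179, with ranks of 4009, 8383 and 6808, at -78 bp. ATPsynF, a membrane subunit (chr2R:24599088-24599821, minus strand), had 261, rank 6893, with ranks of 5782, 8247 and 8066, at -37 bp. All 3 were in every top list, in its weaker part for ATPsynF. ATPsynbeta, the catalytic subunit, was not bound, nor were the stator subunits ATPsynO, ATPsynB and ATPsynD or the ring subunit ATPsynC. The top list of replicate 1 did reach ATPsynbeta, at rank 7090, and ATPsynC, at 7954. That of replicate 3 reached ATPsynD, at 8705, and no top list reached ATPsynO or ATPsynB.

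Signal at members was of ordinary height. The strongest promoter entry of the 21 members had a median signal of 346, with a range of 201 to 1175, against 382 for all 3820 optimal entries within 500 bp of a protein-coding start site. ND-ASHI was the 1 member whose promoter entry ranked in the top 10 percent of the optimal list. Relative to their own start site the 21 summits had a median position of -78 bp, from -254 to 349 bp, and 16 lay upstream. In the other protein-coding genes the median was -124 bp.

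**Figure D3:**
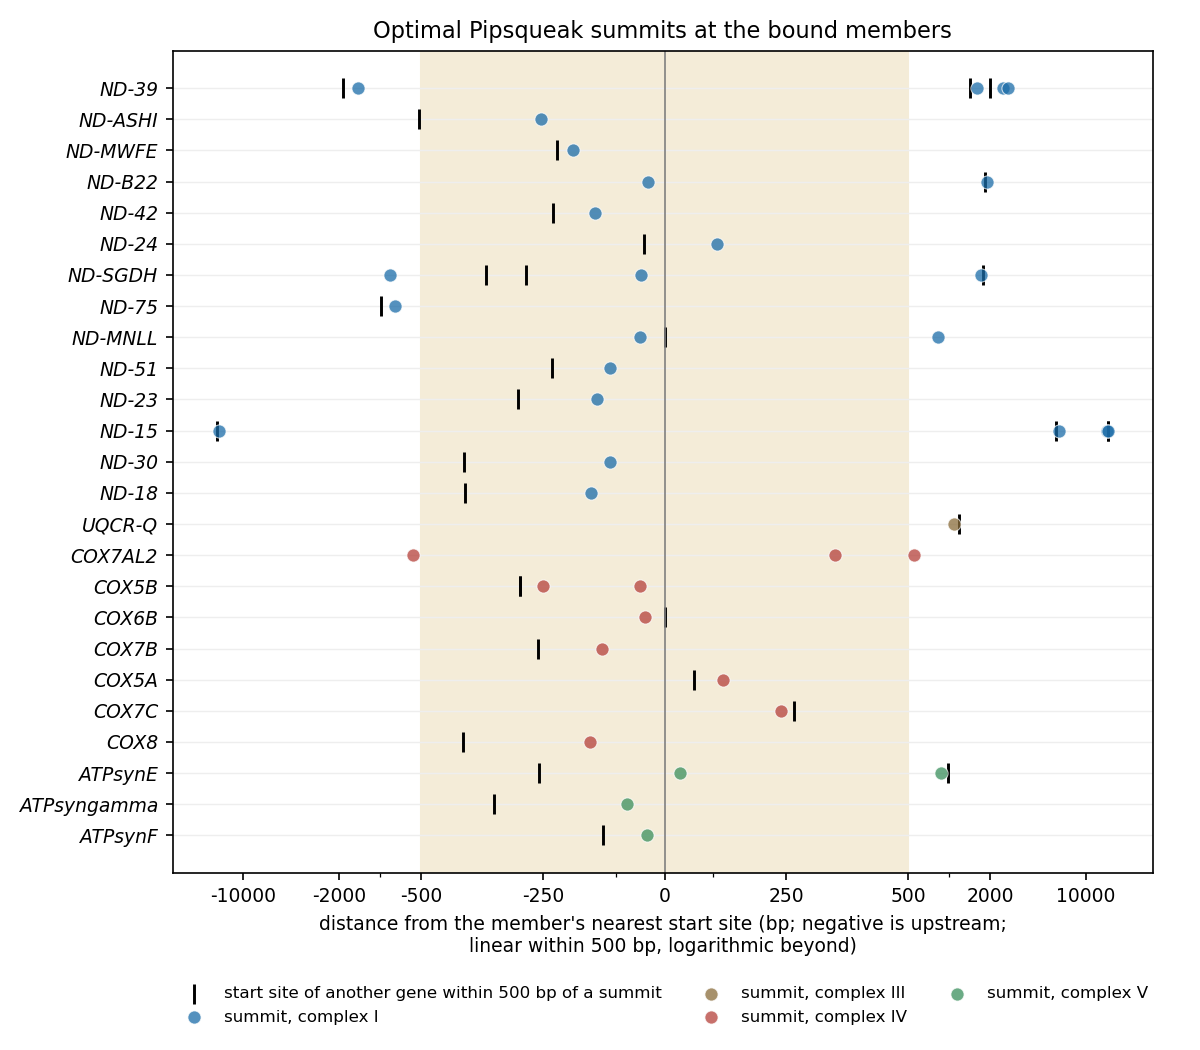
Position of each optimal summit at the 25 bound members relative to the member's nearest start site (bp, negative upstream; linear within 500 bp and logarithmic beyond; shaded band, 500 bp to each side). Coloured points are summits by complex and black ticks are the nearest start site of another gene where it is within 500 bp of the summit, and they stand beside 19 of the 21 promoter summits.

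Most of these promoters were shared with another gene. Of the 21 members with a promoter summit, 19 had it within 300 bp of the start site of another protein-coding gene, with COX7AL2 and ND-B22 the exceptions. Of the 22 distinct promoter entries of members, 20 reached start sites of more than 1 gene, or 90.9%, against 31.8% of all promoter entries. The share was 89.7% for mitochondrial ribosomal protein genes, 69.2% for proteasome genes and 57.9% for cytosolic ribosomal protein genes. These shares start from listed genes, and a shared entry can be reached from more than 1 gene. The 31.8% counts every entry once, so it is a low baseline for them. Counted by gene, 1988 of all 3828 genes with a promoter summit had an opposite-strand start site within 500 bp, beside 19 of the 21 members. In 5 of the 21 the other gene's start site was the nearer. In ND-MNLL and COX6B, a second gene model on the same strand, CG45089 and CG18809, began at the member's own start site, so the distances were equal. No pair of members shared a promoter summit. A summit between start sites cannot be given to either gene from these lists.

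Members often lie head to head with another gene. An opposite-strand start site lay within 500 bp of 39 of the 80 members, or 48.8%, against 27.8% of all protein-coding genes, 72.6% of mitochondrial ribosomal protein genes, 24 of 48 proteasome genes and 39.8% of cytosolic ribosomal protein genes. With such a neighbour, 19 of 39 members had a promoter summit, or 48.7%, beside 51.3% of all genes with one and 43.6% of those of like span. Without one, 2 of 41 had a promoter summit, or 4.88%, beside 18.2% of all genes without one and 10.3% of those of like span. The 2 were COX7AL2 and ND-B22. The split by neighbour was chosen after the shared promoters had been seen.

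**Figure D4:**
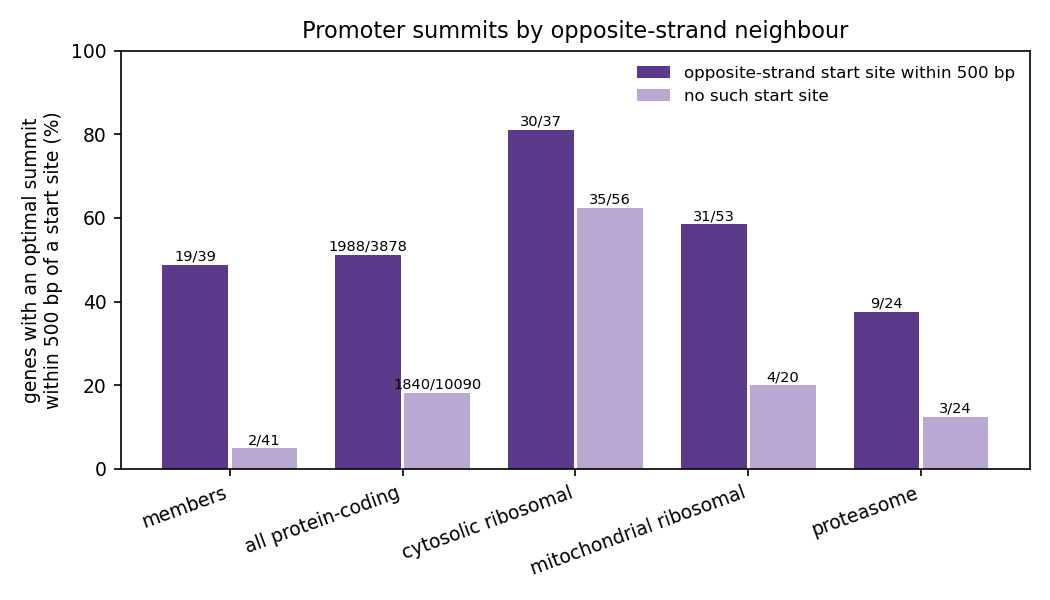
Percent of genes with an optimal summit within 500 bp of a start site, for genes with (dark) and without (light) an opposite-strand start site within 500 bp, with counts above the bars. Members reach 19 of 39 with a neighbour and 2 of 41 without, and the cytosolic ribosomal protein genes 30 of 37 and 35 of 56.

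The partner genes were of many kinds. Besides Fum1 and Cchl, the partners nearest to a promoter summit included VhaM9.7-b, a subunit of the vacuolar proton pump, beside COX8. Sec3 of the exocyst lay beside COX7B, spn-E of the piRNA pathway beside ND-23, corolla of the synaptonemal complex beside ND-24, and the exoribonuclease gene pcm beside ND-18. IFT52, TppII, glo, oys, Afti, yata, RhoGAP68F, CG13994, CG15812 and CG3548 were the partners of COX5B, ND-MWFE, COX5A, COX7C, ATPsynE, ATPsyngamma, ND-SGDH, ND-51, ND-30 and ATPsynF. Fum1 was the one gene of the tricarboxylic acid cycle list among these partners of promoter-bound members. ND-B16.6, which was not bound, has another, kdn, on the opposite strand at 228 bp.

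In 7 of the 25 bound members the strongest summit lay more than 500 bp from any start site of the member, and 4 of these had no promoter summit. ND-39, an accessory subunit of complex I (chr3L:20492082-20497084, plus strand), held the strongest entry at any member, with a signal of 2499 and rank 176. It ranked 267, 162 and 173 in the replicates. The summit lay 1602 bp downstream of a start site of ND-39 and 194 bp from one of ZnT77C, a zinc transporter gene by its name. ND-39 was thus bound strongly and evenly over the replicates, but not at its own start site.

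At ND-B22, an accessory subunit of complex I (chr2L:13370103-13371110, minus strand), the strongest entry of 621 lay 1874 bp downstream of the start site and 52 bp from CG31855, with replicate ranks of 1437, 2979 and 3280. The promoter entry of ND-B22 was weaker, at 265 and rank 6782, and was in the top list of 1 replicate. At ATPsynE the strongest entry of 554 lay 869 bp downstream and 114 bp from spn-B, a recombination gene, with ranks of 2668, 3050 and 2944. ND-75, the large iron-sulfur subunit (chrX:8248651-8251687, minus strand), had its 1 entry of 450 at -785 bp, 198 bp from CG1632, with ranks of 3671, 3500 and 4405. UQCR-Q, a small complex III subunit (chr3L:17474761-17476124, plus strand), had 266 at 1080 bp downstream, 93 bp from CG34250, with ranks of 5207, 7832 and 7612. ND-15 spans 41305 bp, the longest of the members, and its 4 summits lay from 73 to 431 bp from start sites of other genes. Each strongest entry in this paragraph was nearer to another gene's start site than to the member's. In all, the strongest summit was within 500 bp of another gene's start site in 24 of the 25 bound members. The same share over all bound protein-coding genes was not computed, so the count is not shown to be particular to the members.

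The other 55 members had no optimal summit. They were, in complex I, ND-B17.2, ND-B14.5B, ND-PDSW, ND-B8, ND-13A, ND-B17, ND-B14, ND-B15, ND-51L2, ND-51L1, ND-B14.7, ND-B12, ND-19, ND-ACP, ND-13B, ND-24L, ND-B14.5AL, ND-MLRQ, ND-AGGG, ND-49L, ND-20L, ND-49, ND-B14.5A, ND-B16.6, ND-B18 and ND-20. In complex III they were UQCR-11L, UQCR-6.4, UQCR-6.4L, UQCR-C2, UQCR-11, UQCR-C1, UQCR-14L and UQCR-14, and in complex IV COX6CL, COX5BL, COX4, COX4L, COX7CL, COX6AL, COX6AL2, COX7A and COX7AL. In complex V they were ATPsynGL, ATPsynG, ATPsynCF6L, ATPsynB, ATPsynbetaL, ATPsynepsilonL, ATPsynO, ATPsynD, ATPsynCF6, ATPsynC, ATPsynbeta and ATPsyndelta. Of these, 23 had an entry of the pooled list, or 41.8%, beside 37.3% of all protein-coding genes without an optimal summit, and 19 had none in any list. Over all members, 48 of 80 had a pooled entry, beside 60.8% of all protein-coding genes. An entry of those lists is no call. The best pooled rank was that of ND-B18, an accessory subunit of complex I, at 10030, with replicate ranks of 7551, 13720 and 9419. UQCR-14 followed at 10884, with 9482, 10682 and 10033, and the core subunit UQCR-C2 at 10947, with 12511, 13618 and 9693. In 6 of the 55 some replicate's top list reached the gene, namely ND-B14.7, ND-B18, ATPsynD, ATPsynCF6, ATPsynC and ATPsynbeta. None of the 55 was reached in all 3. The counts by top list and of genes with no entry in any list were not made for all protein-coding genes without an optimal summit. They are therefore not shown to be particular to the members.

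By chromosome arm, 5 of 16 members on 2L were bound, where 34.6% of all protein-coding genes were, and 3 of 15 on 2R, where 37.1% were. On 3L 6 of 19 were bound, beside 38.8% of all genes there, and on 3R 5 of 16, beside 37%. On X 6 of 12 members were bound, beside 40.9%. Both members on chromosome 4, ND-49 and ATPsynbeta, were unbound. That chromosome held 21 optimal entries, and 20% of its 80 protein-coding genes were bound. The counts per arm are small and were not tested.

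Of the members, 19 are duplicates by their symbols, named after another subunit gene with L, L1 or L2 added. Many such duplicates in flies are known for testis expression. COX7AL2 was the 1 bound duplicate. Of the 16 genes they are named after, 5 were bound, namely COX5B, levy, COX7C, ND-24 and ND-51, where levy encodes the COX6A subunit and is no member by its symbol. Among the 61 members that are no duplicates, 24 were bound. These shares were 5.26% of duplicates, 31.25% of the genes they are named after and 39.3% of the members that are no duplicates. Of all protein-coding genes, 37.4% were bound. In the shortest span classes, which end at 567, 725 and 871 bp, 9.70%, 16.8% and 19.6% of genes outside the members were bound. Duplicates were shorter, with a median span of 730 bp against 1112 bp, and 2 of 19 had an opposite-strand neighbour against 37 of 61. The part of span and neighbour in this count was not tested.

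Words known from Pipsqueak and promoter studies were sought on both strands within 50 bp of the 22 distinct promoter summits. GAGAG was in 1 window, that of COX6B, or 4.55%, against 16.7% of all 3820 promoter summits, and in the top lists the members' share was 4.31% ± 0.715 (SD, n = 3). GAGAGAG, which contains GAGAG, was in none, against 4.45%. TATCGATA, the DREF element, and GGTCACACT, the core of the promoter word bound by M1BP, were in none, against 2.67% and 1.05%. CAGCTG was in none, against 5.39%, and TCAAGGTCA, the site of the oestrogen-related receptor, and GCGCATGCG, that of the Ewg family, were in none, against 0 and 6 of all 3820. GAAAG, a composition control, was in 22.7% against 23.7%.

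TTANNTAA was in 8 of the 22 windows, or 36.4%, against 9.82% of all promoter summits. The 8 were at ND-MWFE, ND-30, ND-SGDH, ND-42, ND-MNLL, COX7B, COX8 and ATPsyngamma. The members' windows were also rich in AT, with a mean GC content of 31.4% against 38.2%. Other words of the same letters, AATNNATT and ATTNNAAT, were in 36.4% and 22.7% of them against 12.9% and 11.8%, and TATNNATA in 18.2% against 12.9%. The stricter form of the element, with TTACATAA, TTACGTAA, TTATATAA or TTATGTAA, was in 4 windows, or 18.2%, against 1.94%. These were at ND-30, ND-SGDH, ND-42 and ND-MNLL. Promoters were read from 250 bp before to 50 bp after the start. There the stricter form was in 5 of 80 members, or 6.25%, against 5.18% of all promoters. In the top lists of single replicates the TTANNTAA share was 23.7% ± 3.25 (SD, n = 3). The part of base composition was not tested, and the added words were chosen after seeing the data.

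In the promoters of the members, from 250 bp before to 50 bp after the start, GGTCACACT was in 15 of 80, or 18.75%, against 6.04% of all protein-coding promoters. It was in 23.8% of member promoters with a promoter summit and 16.9% of those without. TTANNTAA was in 31.25% of member promoters against 23.5%, GAGAG in 21.25% against 29.7%, and TATCGATA in 11.25% against 9.36%. For TTANNTAA the share was 33.3% of member promoters with a promoter summit and 30.5% of those without. A match is a description of the letters and not a site.

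Other genes of the pathway were taken from a list of 46, of which 24 were bound, or 52.2%, against 37.4% of all protein-coding genes. A promoter summit stood at 16 of the 46, or 34.8%, against 27.4% of all protein-coding genes. Their median span was 2441 bp, against 2164.5 bp for all protein-coding genes and 1091.5 bp for the members. Longer genes hold more summits, and no share of like span was computed for this list or its parts. Among other subunits and electron carriers, 10 of 16 were bound: SdhA, SdhB, SdhC, SdhBL, ox, Cyt-c-p, Cyt-c-d, cype, levy and blw. Only 5 of the 16 had a promoter summit, namely SdhC, Cyt-c-d, cype, levy and blw. SdhD, SdhAL, RFeSP, Cyt-c1, Cyt-c1L and sun were not. Cyt-c-p, the somatic cytochrome c gene, had a signal of 1630, rank 442, at 992 bp from its start site, and Cyt-c-d, the male germline form next to it, had 1159. The strongest entry at blw, which encodes the alpha subunit of ATP synthase, was 1254 and lay 3888 bp from its start site. These entries lay outside the promoter window of 500 bp, except that at Cyt-c-d, and none was as strong as the entry of 2499 at ND-39.

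Among assembly factors CIA30, which is needed to assemble complex I, had a signal of 1799, rank 369, at -89 bp, and ECSIT was also bound, while Scox and Surf1 were not. Of the exchange genes, porin was bound, with 681, and the adenine nucleotide carriers sesB and Ant2 were not. Of 11 genes of mitochondrial gene expression and its regulators, mtTFB1, mtTFB2, mtSSB and ERR were bound, and TFAM, PolrMT, PolG1, PolG2, srl, ewg and Ets97D were not. In the tricarboxylic acid cycle 7 of 12 were bound, namely kdn, mAcon1, Idh3b, Idh3g, Ogdh, Scsalpha1 and Fum1. The median span of these 12 genes was 3402.5 bp. Idh3g, a subunit of isocitrate dehydrogenase, had 1331 at -103 bp. Idh3a, ScsbetaA, ScsbetaG, Mdh2 and Mdh1 were not bound.

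Other large housekeeping assemblies showed where the members stand. Cytosolic ribosomal protein genes were bound in 70 of 93, or 75.3%, mitochondrial ribosomal protein genes in 41 of 73, or 56.2%, and proteasome subunit genes in 15 of 48, or 31.25%. In the optimal list the members' share equalled that of the proteasome. In the replicates' top lists the bound counts were 24 to 28 of 80 members, 12 to 17 of 48 proteasome genes, 38 to 45 of 73 mitochondrial and 67 to 71 of 93 cytosolic ribosomal protein genes, so that the members' share was below those of both ribosomes in each. Without an opposite-strand neighbour, promoter summits stood at 35 of 56 cytosolic and 4 of 20 mitochondrial ribosomal protein genes and 3 of 24 proteasome genes, against 2 of 41 members. Of all protein-coding genes 37.4% were bound, and 18.2% of those without such a neighbour had a promoter summit. Median spans were 1318, 909 and 1381.5 bp for cytosolic ribosomal, mitochondrial ribosomal and proteasome genes, against 1091.5 bp for the members. No share of like span was computed for these lists. No test was made of these differences.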

How the data were processed

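Chromatin from 3 replicate samples of 1 group, sonicated to a size range of 200 to 800 bp per the labels, was mapped by the authors. The deposited text files describe the replicate and pooled lists as holding peaks together with background, made with a control, and as input for the irreproducible discovery rate step, and the optimal list as its output. For aligner, peak caller and threshold, no name or value is given in the sources used here. The signal of each entry, the −log10 q-value and the summit offset were used as deposited by the authors. The signal scale is not stated. The −log10 q-value served only to read the lists. The dm3 lists were not used.

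Summits were compared with Ensembl release 115 gene models (FlyBase 6.54) and release 6 of the genome from RefSeq, in Python 3.11.15 with numpy 2.4.6, pandas 2.3.3 and matplotlib 3.10.9. Entries repeating coordinates (584) were kept. Errors are SDs over the 3 top lists, and lists were matched by an overlap of at least 1 bp. The counting was tested on simulated summits. No statistical test was applied. The members, lists and motifs were chosen with earlier results of these data known. Genes named with full values were, per complex, the 3 members with the strongest promoter summit, the bound duplicates, up to 6 bound members whose strongest summit lies beyond 500 bp of their start sites, and the 3 unbound members with the best pooled rank. ND-15, ND-18 and other members were named after their values were seen. No depth was given.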

Additional observations from a re-analysis of the deposited data

How the results depend on the processing

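Of 84 alternative values for the comparisons, 53 counts or shares kept within 1.5 times of the count given, or within the spread between replicates. Of the other 31, 29 did not, and 2 are median signals, which have no replicate spread and are given whatever their change. Without the 1 kb flank, 9 members were bound (complex I 4, complex III 0, complex IV 3), as were 3 genes that duplicates are named after, 10 other pathway genes, and 20 cytosolic ribosomal, 3 mitochondrial ribosomal and 4 proteasome genes. Of the unbound members, 9 then had a pooled entry, and 6.75% of genes of like span were bound. With a flank of 2 kb, complex III had 3 bound members, complex V 6 and the duplicates 3. In the stronger 50% of optimal entries, 12 members were bound and 9 had a promoter summit (complex III 0, complex IV 1, complex V 1), beside 3 genes that duplicates are named after, 44 cytosolic ribosomal, 23 mitochondrial ribosomal and 7 proteasome genes. The median promoter signal was then 487.7, and 344.8 with 1 entry per set of overlapping entries. With top lists of 50% of the size, 9 members were supported in all replicates and 14 were bound on average. The GAGAG share was 9.09% with 100 bp on either side of the summit, against 29.9% of all promoter summits. In the promoter sequence of members with a promoter summit it was 23.8%, against 31.3% of all promoters with one. The TTANNTAA share was 13.6% with 25 bp on either side, against 4.84% of all promoter summits. Opposite-strand start sites within 250 bp were found at 25 members. Leaving out each replicate in turn gave 22 to 23 supported members and means of 25 to 27 bound members. RefSeq gene spans were identical for all 80 members. Counting COX6CL and ATPsynepsilonL as duplicates, chosen after seeing the data, gave 1 of 21 bound. Of 48 alternative counts of summits at single named genes, 19 moved. Stricter settings hold fewer entries or bases and wider ones hold more, and the cause of these moves was not tested. No paired analysis was possible because there was 1 group. Depth is unknown, so a member without a summit cannot be told apart from one below the detection limit.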
